A study of Mus musculus with 7 samples.

Results

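Genes for the receptors of serotonin, dopamine, noradrenaline and acetylcholine were examined in RNA-seq libraries from the mouse brain, 3 labelled noCRS and 4 labelled CRS. They were taken as every gene of the deposited table whose symbol starts with Htr, Drd, Adra, Adrb, Chrm or Chrn followed by a receptor or subunit identifier, which gave 50 of 55367 genes. Of these, 49 are protein-coding receptor or subunit genes, namely 14 for serotonin, 5 for dopamine, 6 alpha and 3 beta adrenergic, 5 muscarinic and 16 nicotinic. The remaining match, Chrna1os, is a noncoding gene next to Chrna1 and was kept apart. Both groups were C57BL/6J mice labelled P90, with no genotype or agent given beyond the labels CRS and noCRS. The labels name the source as prefrontal (mPFC) neurons with a projection to the lateral habenula (LHB). The sources used here give neither how those neurons were isolated nor whether each library came from its own animal. P-values therefore measure only the spread between these libraries, which may be technical.

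These receptors carry the signals of the ascending modulatory systems to the cortex: serotonin from the raphe, dopamine from the ventral tegmental area, noradrenaline from the locus coeruleus and acetylcholine from the basal forebrain. Most are G protein-coupled. Receptors coupled to Gs raise cyclic AMP, those coupled to Gi lower it and open potassium channels, and those coupled to Gq activate phospholipase C. The nicotinic receptors and the serotonin receptor built from Htr3a and Htr3b are ion channels made of several subunits and excite the cell directly.

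The libraries held 28677703 to 39965667 counts each. The labelled cell type was checked against its markers, since receptor levels depend on which cells gave the RNA. The 6 excitatory cortical neuron markers, led by Nrgn and Neurod6, summed to 14.9 to 25.7 CPM in noCRS and 480.0 to 728 CPM in CRS. All 6 were higher in CRS with no overlap between the groups, beside 10.1% of all tested genes. The 6 pan-neuronal markers, led by Snap25 and Syt1, summed to 152 to 266 CPM in noCRS and 2691 to 3975 CPM in CRS, and the 7 inhibitory neuron markers, led by Sst and Gad1, to 34.6 to 50.5 CPM in noCRS and 162 to 682 CPM in CRS. In the same way 5 of the 6 pan-neuronal and 3 of the 7 inhibitory markers did not overlap. Gad2, Lamp5 and Pvalb overlapped, with Pvalb means of 2.15 CPM in noCRS and 2.17 CPM in CRS. Slc32a1 held 8 counts in CRS and 0 in noCRS. In the noCRS libraries Slc17a7, the vesicular glutamate transporter of cortical pyramidal neurons, measured 0.603, 0 and 0 CPM (TMM-normalised, not scaled to gene length), so a defining marker of the labelled neurons was at or near 0 there, as was Tbr1, a transcription factor of deep-layer cortex (0.386, 0 and 0 CPM). Glial transcripts were abundant in both groups, with oligodendrocyte markers (with Cnp among the highest) summing to 29569.6 to 34044 CPM in noCRS and 24653 to 48119.6 CPM in CRS and astrocyte markers (Slc1a3 and Aldoc highest) to 5597 to 9057 CPM in noCRS and 3321 to 8173 CPM in CRS. The 5 oligodendrocyte precursor markers, led by Pdgfra and Olig1, had a lower sum in every CRS library (1665 to 1879 CPM in noCRS and 948 to 1377 CPM in CRS). Among them 3 (Olig1, Cspg4 and C1ql1) were lower in CRS with no overlap, beside 6.74% of all tested genes. Pdgfra and Vcan overlapped. Cspg4, C1ql1 and Vcan were named after their values were seen. The 7 thalamic, habenular or striatal markers (Ppp1r1b and Slc17a6 highest) summed to 29.5 to 31.7 CPM in noCRS and 41.8 to 68.2 CPM in CRS. Ppp1r1b and Slc17a6 separated the groups and the others overlapped. Of these, Lef1, named after its values were seen, had a lower mean in CRS (9.87 CPM in noCRS and 4.13 CPM in CRS). The 4 mural markers summed to 36.9 to 109 CPM in noCRS and 132 to 437 CPM in CRS. The mural sum followed Rgs5 (39.9 ± 30.01 CPM for noCRS (SD, n = 3) and 256 ± 126 CPM for CRS (SD, n = 4)), while Acta2 (25.8 ± 10.5 CPM for noCRS (SD, n = 3) and 21.6 ± 7.14 CPM for CRS (SD, n = 4)) and Pdgfrb (8.38 ± 4.83 CPM for noCRS (SD, n = 3) and 1.02 ± 1.98 CPM for CRS (SD, n = 4), named after its values were seen) had lower means in CRS and overlapped. Microglial (P2ry12), endothelial (Flt1 and Cldn5), blood (Hba-a1 and Hbb-bs) and monoamine or cholinergic (Slc6a3 and Th) sums overlapped between the groups. In bulk RNA, fewer cells of a type and less RNA per cell cannot be told apart. The part of these marker differences in the receptor results below was not tested.

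Receptor transcripts were sparse: 20 of the 49 genes had enough counts to be tested, and 1 of those 20 differed between the groups, beside 2.3% of all 17833 tested genes. Chrm2, a Gi-coupled muscarinic receptor, was nearly absent from the noCRS libraries and present in all 4 CRS libraries at a mean of 11.9 CPM. The dopamine receptor gene Drd1 and the serotonin receptor gene Htr7 had counts in 3 CRS libraries and in no noCRS library, short of the threshold. Chrna4, the nicotinic subunit gene with the most counts of the 49 in every library, was lower in every CRS library than in any noCRS library, also short of it.

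Detection was counted first, as at least 1 count in a library. Of the 49 receptor genes, 16, 15 and 11 were detected in noCRS replicates 1, 2 and 3, and 21, 14, 21 and 29 in CRS replicates 1, 2, 3 and 4. The means were 14 ± 2.65 genes (SD, n = 3) in noCRS and 21.25 ± 6.13 genes (SD, n = 4) in CRS, and the groups overlapped because CRS replicate 2 had fewer than noCRS replicates 1 and 2. CRS replicate 2 also had the fewest genes detected in all (16938) and CRS replicate 4, with the most receptor genes, had the most (23399). After every library was thinned to the smallest total, 16, 15 and 11 receptor genes remained detected in noCRS and 21, 14, 21 and 28 in CRS.

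Only 5 of the 49 were detected in all 7 libraries: Chrna4, Chrnb2, Chrm1, Adra1b and Adra2a. At the other end 15 had no count in any library, which was 8 of 16 nicotinic genes (Chrna2, Chrna3, Chrna6, Chrna9, Chrna10, Chrnb4, Chrnd and Chrng), 3 of 14 serotonin genes (Htr3b, Htr4 and Htr5b), 2 of 5 dopamine genes (Drd3 and Drd4), Adra2b and Chrm5. A total of 0 counts allows a level of up to 0.0286 CPM over the noCRS group and 0.0224 CPM over the CRS group (3 counts, counting error only). The muscle-type subunits Chrnd and Chrng and the autonomic and habenular subunits Chrna3 and Chrnb4 were thus not detected in these libraries. A share of 30.6% of the receptor genes had no count, beside 50.2% of all 55367 genes. Of the 34 detected genes, 19 had counts in both groups, 13 in CRS alone and 2, Adrb3 and Chrne, in noCRS alone. CRS had 4 libraries and noCRS 3, and the same split over all genes was not computed, so these numbers show no gain of receptors. Some of the 13 rest on few counts, as Drd2 (1), Chrm4 (4) and Htr1d (5) do. Htr2b and Htr3a were counted in CRS replicate 4 alone, the library with the most genes detected. Chrna1os was detected in all 7 libraries (4.44, 0.321 and 3.79 CPM in noCRS replicates 1, 2 and 3 and 1.39, 1.84, 2.41 and 4.74 CPM in CRS replicates 1, 2, 3 and 4) and the groups overlapped (edgeR adjusted p = 0.985).

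**Figure D1:**
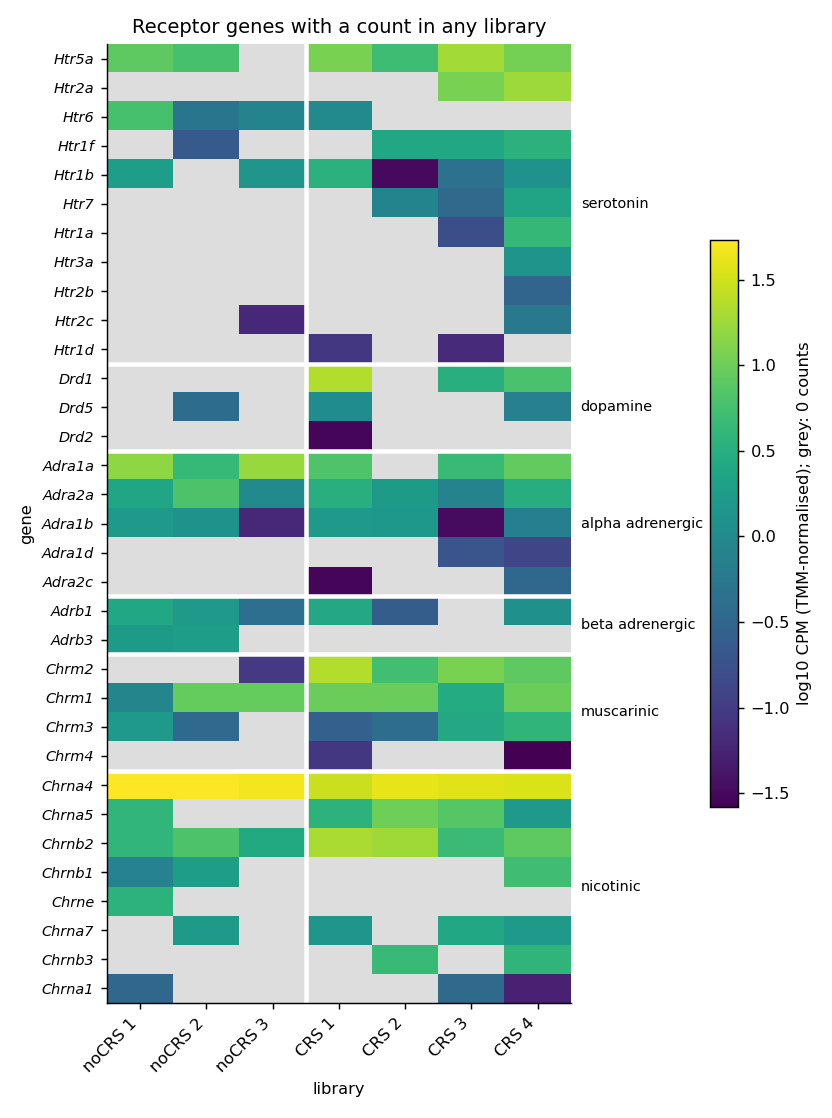
Level of 33 of the 34 receptor genes with a count in any library (rows, by class and then by mean CPM per kilobase of exon) in the 7 libraries (columns), as log10 CPM, with grey for 0 counts. Chrna4 is high in every column, Chrm2 is coloured in all 4 CRS columns and in noCRS replicate 3 alone of the noCRS columns, and many other rows switch between grey and colour within a group.

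Presence often changed from library to library within a group. Among the 20 receptor genes that passed the expression filter, 38 of 140 gene-by-library values were 0 (27.1%), beside 7.97% of the values of all 17833 tested genes. At least 1 library was at 0 for 15 of the 20, beside 26.7% of all tested genes. The receptor genes were also low in level, and a share of values at 0 depends on level. Htr2a, the Gq-coupled serotonin receptor of cortical pyramidal neurons, had 0, 0 and 0 counts in noCRS replicates 1, 2 and 3 and 0, 0, 357 and 677 counts in CRS replicates 1, 2, 3 and 4. Within CRS alone it thus ran from 0 to 677 counts.

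The muscarinic class held the gene past the threshold. Chrm2 (chromosome 6, 36388084 to 36528414, GRCm38) encodes a Gi-coupled receptor that serves as an autoreceptor on cholinergic terminals and is also found on cortical neurons. It had 0, 0 and 3 counts in noCRS replicates 1, 2 and 3 and 739, 173, 357 and 312 counts in CRS replicates 1, 2, 3 and 4. In normalised units that was 0, 0 and 0.0924 CPM in noCRS replicates 1, 2 and 3 and 22.3, 5.4, 11.8 and 8.13 CPM in CRS replicates 1, 2, 3 and 4. The lowest CRS library thus stood above the highest noCRS library, and the group means were 0.0308 ± 0.0534 CPM for noCRS (SD, n = 3) and 11.9 ± 7.42 CPM for CRS (SD, n = 4). The groups' ratio was 414 (95% exact interval 141 to 2008, counting error only), a range this wide because noCRS held 3 counts in all, each of them in replicate 3 (0 CPM without it). The quasi-likelihood test of edgeR gave a Benjamini-Hochberg adjusted p of 0.034. By this rule 1 of 20 tested receptor genes differed, beside 2.3% of all tested genes. The 1 was higher in CRS, beside 2.07% of all tested genes, and 0 were lower, beside 0.23% (with no adjustment 1 was lower at p below 0.05, while DESeq2 called 1 lower and limma-voom 0). Leaving out noCRS replicate 1 or 2, or CRS replicate 1, 3 or 4, ended the Chrm2 call (adjusted p 0.0749 to 0.121). It held without noCRS replicate 3 or CRS replicate 2, by limma-voom and by DESeq2. Of its exon length, 2.35% is shared with a noncoding gene.

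The Chrm2 start region is printed because this gene carried the call. The window holds the 250 bases before and 50 from the RefSeq transcript start (GRCm38.p6, chr6:36387834-36388133, plus strand), 5′ to 3′, with CG pairs in capitals.
Chrm2: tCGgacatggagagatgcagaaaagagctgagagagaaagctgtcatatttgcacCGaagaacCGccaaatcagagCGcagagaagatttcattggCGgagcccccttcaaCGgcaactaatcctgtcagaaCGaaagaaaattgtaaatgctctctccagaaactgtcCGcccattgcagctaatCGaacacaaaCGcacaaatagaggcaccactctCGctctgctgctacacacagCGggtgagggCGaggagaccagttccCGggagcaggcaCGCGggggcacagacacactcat

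It held 16 CG pairs, beside a median of 7 over all 32851 RefSeq windows of this length, and its GC content of 52.7% equalled their median (52.7%). A cyclic AMP response element (TGACGTCA) was in none of the 42 windows found for 37 of the receptor genes and in 1.79% of all windows. The AP-1 motif (TGANTCA) was in 4 of the 42 (9.52%), those of Htr2b, Chrna1, Adra1b and Htr2c, and in 7.81% of all. The TATAAA motif was in 2 of the 42 (4.76%), those of Chrnb1 and Adra2a, and in 13.6% of all. Both strands were searched, and the Chrm2 window held none of the 3 motifs.

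The other muscarinic genes overlapped between the groups. Chrm1, the Gq-coupled receptor that dominates in forebrain pyramidal neurons, measured 0.844, 8.83 and 8.87 CPM in noCRS replicates 1, 2 and 3 and 9.66, 9.39, 2.87 and 9.72 CPM in CRS replicates 1, 2, 3 and 4 (log2 fold change 0.36 ± 0.90 SE, edgeR adjusted p = 0.932). It was low in 1 library of each group and near a common level in the other 5. Chrm3, also Gq-coupled, measured 1.62, 0.353 and 0 CPM in noCRS replicates 1, 2 and 3 and 0.272, 0.406, 2.61 and 3.86 CPM in CRS replicates 1, 2, 3 and 4 (edgeR adjusted p = 0.858). Chrm4, Gi-coupled and known from striatal neurons, had 3 counts in CRS replicate 1 and 1 in CRS replicate 4, and 0 in the other 5 libraries. In number, 2 of the 5 muscarinic genes were detected in each noCRS library and 4, 3, 3 and 4 in CRS replicates 1, 2, 3 and 4. Summed over the class as CPM per kilobase of exon, the muscarinic level was 0.389, 1.42 and 1.38 in noCRS replicates 1, 2 and 3 and 5.28, 2.4, 2.81 and 3.48 in CRS replicates 1, 2, 3 and 4, with no overlap between the groups. Without Chrm2 the sums were 0.389, 1.42 and 1.37 in noCRS replicates 1, 2 and 3 and 1.6, 1.51, 0.86 and 2.13 in CRS replicates 1, 2, 3 and 4, and the groups overlapped.

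**Figure D2:**
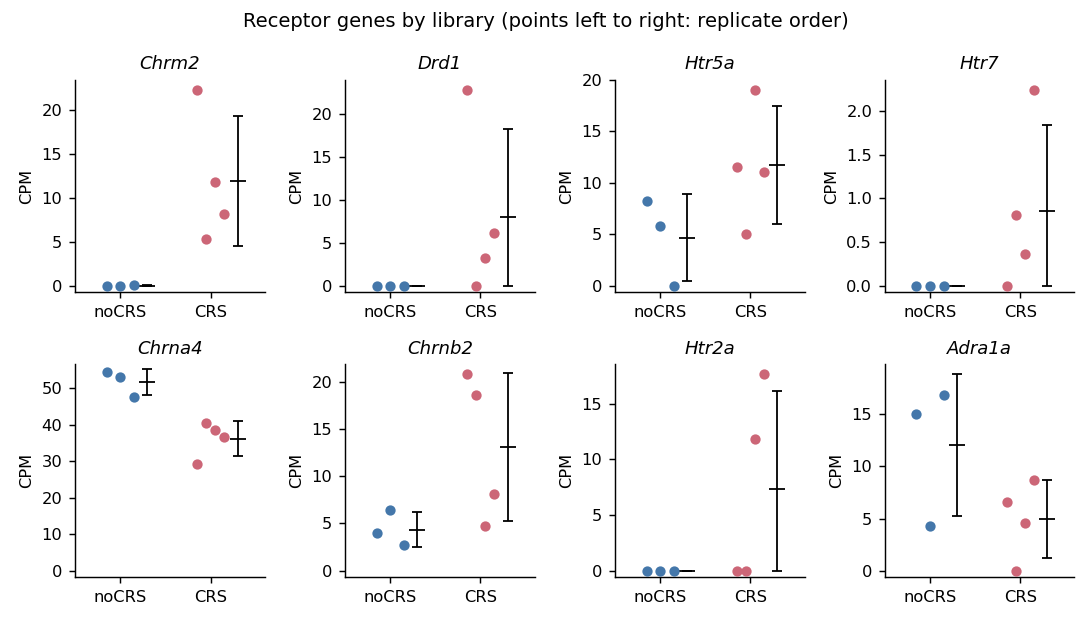
CPM of 8 receptor genes in each library (points, noCRS blue, CRS red), with the group mean and SD as bars that stop at 0. Chrm2 is above 5 CPM in all 4 CRS libraries, Drd1 and Htr7 are at 0 in noCRS and in 1 CRS library each, and Chrna4 is between 29.3 and 40.4 CPM in CRS and between 47.7 and 54.4 CPM in noCRS.

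Among the nicotinic genes a single subunit dominated. Chrna4 (chromosome 2, 181018380 to 181043546), which with Chrnb2 forms the main high-affinity nicotinic receptor of the brain, measured 54.4, 52.9 and 47.7 CPM in noCRS replicates 1, 2 and 3 and 29.3, 40.4, 38.4 and 36.5 CPM in CRS replicates 1, 2, 3 and 4. All 4 CRS libraries lay below all 3 noCRS libraries, with means of 51.7 ± 3.54 CPM for noCRS (SD, n = 3) and 36.1 ± 4.86 CPM for CRS (SD, n = 4) (log2 fold change -0.52 ± 0.22 SE, edgeR adjusted p = 0.366). DESeq2 called it as lower (adjusted p = 0.0478), and edgeR did not under any alternative (adjusted p 0.313 to 0.536 over the left-out libraries). Its groups and those of Chrm2 were the 2 of 20 that did not overlap among tested receptor genes, beside 16.9% of all tested genes. Chrna4 gave 50.01, 56.1 and 59.6% of all receptor counts in noCRS replicates 1, 2 and 3 and 20.6, 40.1, 32 and 25.2% in CRS replicates 1, 2, 3 and 4. The summed precursor markers given above were lower in the same libraries, and their part in the Chrna4 difference was not tested.

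The Chrna4 window is shown as that of the most abundant receptor gene (GRCm38.p6, chr2:181039128-181039427, minus strand, 5′ to 3′ along the gene, CG pairs in capitals). It lies within the gene's span in the deposited table.
Chrna4: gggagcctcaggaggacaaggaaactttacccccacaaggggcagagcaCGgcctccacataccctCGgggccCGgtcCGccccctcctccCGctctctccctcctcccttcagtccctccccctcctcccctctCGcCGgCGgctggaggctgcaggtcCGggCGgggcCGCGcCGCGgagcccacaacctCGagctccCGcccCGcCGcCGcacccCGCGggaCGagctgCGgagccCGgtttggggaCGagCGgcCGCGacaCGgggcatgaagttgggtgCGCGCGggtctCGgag

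This window held 33 CG pairs and had a GC content of 74.3%, with fewer CG pairs in 91.4% of all RefSeq windows. None of the 3 motifs was in it.

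The partner subunit had a higher mean in CRS, short of the threshold. Chrnb2 (chromosome 3, 89746195 to 89764632) measured 3.96, 6.39 and 2.71 CPM in noCRS replicates 1, 2 and 3 and 20.8, 18.6, 4.72 and 8.13 CPM in CRS replicates 1, 2, 3 and 4 (log2 fold change 1.59 ± 0.73 SE, edgeR adjusted p = 0.401). CRS replicates 1 and 2 were high, CRS replicate 3 lay among the noCRS values, and the groups overlapped. Chrnb2 shares 16.3% of its exon length with Adar on the other strand, and strand was not marked, so its value is uncertain. Per kilobase of exon, the ratio of Chrnb2 to Chrna4 was 0.0436, 0.0723 and 0.0341 in noCRS replicates 1, 2 and 3 and 0.427, 0.275, 0.0736 and 0.133 in CRS replicates 1, 2, 3 and 4. That ratio was chosen after its values were seen and was not tested. It was higher in every CRS library than in any noCRS library, with CRS replicate 3 close to noCRS replicate 2.

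Chrna5, an accessory subunit known from deep cortical layers, measured 4.0, 0 and 0 CPM in noCRS replicates 1, 2 and 3 and 3.65, 10.2, 7.33 and 1.56 CPM in CRS replicates 1, 2, 3 and 4 (edgeR adjusted p = 0.803). It was at 0 in 2 noCRS libraries and present in all 4 CRS libraries, but noCRS replicate 1 lay within the CRS range. Chrna7, whose subunits form a calcium-permeable receptor on their own, measured 0, 1.61 and 0 CPM in noCRS replicates 1, 2 and 3 and 1.39, 0, 2.51 and 1.56 CPM in CRS replicates 1, 2, 3 and 4 (edgeR adjusted p = 0.902), with a 0 in both groups. Chrnb1, a subunit of the muscle receptor, was tested too and overlapped (edgeR adjusted p = 0.971). Chrnb3, which joins receptors of dopaminergic and habenular neurons, had 145 counts in CRS replicate 2, 150 in CRS replicate 4 and 0 in the other 5 libraries, too few libraries for the filter. Summed over the 16 genes, the nicotinic level was 15.1, 12.4 and 9.81 in noCRS replicates 1, 2 and 3 and 9.79, 14.2, 11.2 and 11.8 in CRS replicates 1, 2, 3 and 4 CPM per kilobase, and the groups overlapped with and without Chrna4.

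Serotonin receptor genes were detected in larger number in CRS, 3 in each noCRS library and 4, 4, 7 and 9 in CRS replicates 1, 2, 3 and 4, while edgeR called 0 of 5 tested genes (DESeq2 called 1 and limma-voom 0, and 1 had an unadjusted p below 0.05). These numbers rest in part on very few counts. CRS replicate 1 reached 4 genes through 3 counts of Htr1d, and CRS replicate 2 through 1 count of Htr1b. In noCRS replicate 3, Htr2c was detected by 2 counts. The most abundant was Htr5a, a Gi-coupled receptor, at 8.25, 5.81 and 0 CPM in noCRS replicates 1, 2 and 3 and 11.6, 5.09, 19 and 11.1 CPM in CRS replicates 1, 2, 3 and 4 (log2 fold change 1.32 ± 1.41 SE, edgeR adjusted p = 0.827). Its noCRS values spanned 0 to 8.25 CPM and overlapped those of CRS. Htr7, a Gs-coupled receptor, had 0, 0 and 0 counts in noCRS replicates 1, 2 and 3 and 0, 26, 11 and 86 counts in CRS replicates 1, 2, 3 and 4. Its CRS mean of 0.854 CPM was at least 29.9-fold higher than the floor of 3 counts over the noCRS group, with edgeR adjusted p = 0.223. Htr1f, Gi-coupled and named after its values were seen, had 0, 7 and 0 counts in noCRS replicates 1, 2 and 3 and 0, 79, 76 and 137 counts in CRS replicates 1, 2, 3 and 4 (edgeR adjusted p = 0.466).

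Several serotonin receptors much studied in prefrontal cortex had counts in 2 libraries or fewer. Htr1a, the Gi-coupled receptor that hyperpolarises pyramidal neurons, had 0 counts in 5 libraries, 5 in CRS replicate 3 and 162 in CRS replicate 4. Htr2a was seen in CRS replicates 3 and 4 alone (11.8 and 17.6 CPM). With counts in only 2 libraries it did not pass the edgeR filter, and DESeq2, which applies its own, called it as higher (5 of 23 receptor genes called, beside 8.96% of all genes). Htr2c, also Gq-coupled, had 2 counts in noCRS replicate 3 and 22 in CRS replicate 4. Htr3a, the ion channel subunit that marks a group of cortical interneurons, had 52 counts in CRS replicate 4 and 0 elsewhere. Htr6, Gs-coupled and named after its values were seen, had most of its counts in noCRS, with 244, 16 and 27 counts in noCRS replicates 1, 2 and 3 and 33, 0, 0 and 0 counts in CRS replicates 1, 2, 3 and 4 (edgeR adjusted p = 0.653), and Htr1b, a Gi-coupled terminal receptor, overlapped (edgeR adjusted p = 0.98). Htr1b shares 18% of its exon length with an antisense gene. CRS replicate 4 was the library with the most genes detected, and its part in these rare receptors was not tested.

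Of the 5 dopamine receptor genes, Drd1 (chromosome 13, 54051183 to 54055705) gave nearly all counts. It encodes the main Gs-coupled dopamine receptor of cortex and striatum. The gene had 0, 0 and 0 counts in noCRS replicates 1, 2 and 3 and 755, 0, 99 and 235 counts in CRS replicates 1, 2, 3 and 4, or 22.8, 0, 3.27 and 6.12 CPM in the CRS libraries. Every noCRS library and CRS replicate 2 were at 0, so the groups overlapped. The CRS mean of 8.05 ± 10.1 CPM (SD, n = 4) was at least 282-fold higher than the noCRS group floor, a bound on counts and not on expression. It was 3.13 CPM without CRS replicate 1. edgeR gave an adjusted p of 0.172, which was 0.0467 without CRS replicate 2, and DESeq2 gave 0.000282.

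Drd2, the main Gi-coupled dopamine receptor and a marker of indirect-pathway striatal neurons, had 1 count in all, in CRS replicate 1. Drd5, Gs-coupled, had 0, 12 and 0 counts in noCRS replicates 1, 2 and 3 and 36, 0, 0 and 28 counts in CRS replicates 1, 2, 3 and 4 (edgeR adjusted p = 0.867). It shares 48.6% of its exon length with an antisense gene and is uncertain for that reason. Drd3 and Drd4 had no counts. Adora2a, a marker of those striatal neurons that was named after its values were seen, was at 0 in 6 libraries and at 1.35 CPM in CRS replicate 4.

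Each noCRS library had counts for 3 of the 6 alpha adrenergic genes, and CRS replicates 1, 2, 3 and 4 for 4, 2, 4 and 5. Adra1a, a Gq-coupled noradrenaline receptor, measured 15, 4.3 and 16.9 CPM in noCRS replicates 1, 2 and 3 and 6.58, 0, 4.59 and 8.7 CPM in CRS replicates 1, 2, 3 and 4 (log2 fold change -1.28 ± 1.38 SE, edgeR adjusted p = 0.83). It was at 0 in CRS replicate 2, and the groups overlapped because noCRS replicate 2 lay within the CRS range. Adra2a, the Gi-coupled receptor through which guanfacine acts in prefrontal cortex, measured 2.41, 6.49 and 1.02 CPM in noCRS replicates 1, 2 and 3 and 3.14, 1.68, 0.792 and 3.05 CPM in CRS replicates 1, 2, 3 and 4 (edgeR adjusted p = 0.902; the sign of its fold change turned without noCRS replicate 2). Adra1b, also Gq-coupled, had a level of 0.987 ± 0.819 and 0.974 ± 0.752 CPM (SD; n = 3 and n = 4; edgeR adjusted p = 0.998). edgeR called 0 of these 3 genes (DESeq2 and limma-voom also called 0, and 0 had an unadjusted p below 0.05). Summed per kilobase over the class, the alpha adrenergic level was 2.69, 2.21 and 2.16 in noCRS replicates 1, 2 and 3 and 1.9, 0.801, 0.804 and 2.0 in CRS replicates 1, 2, 3 and 4. Each CRS sum was below each noCRS sum, though none of its 3 tested genes separated the groups.

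The beta adrenergic receptors are Gs-coupled. Adrb1, the main beta receptor of cortical neurons, measured 2.51, 1.57 and 0.431 CPM in noCRS replicates 1, 2 and 3 and 2.66, 0.25, 0 and 1.2 CPM in CRS replicates 1, 2, 3 and 4 (edgeR adjusted p = 0.943), with wide overlap. Adrb3, best known from fat, had 70 and 58 counts in noCRS replicates 1 and 2 and 0 in the other 5 libraries. It shares 24.9% of its exon length with an antisense gene.

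**Figure D3:**
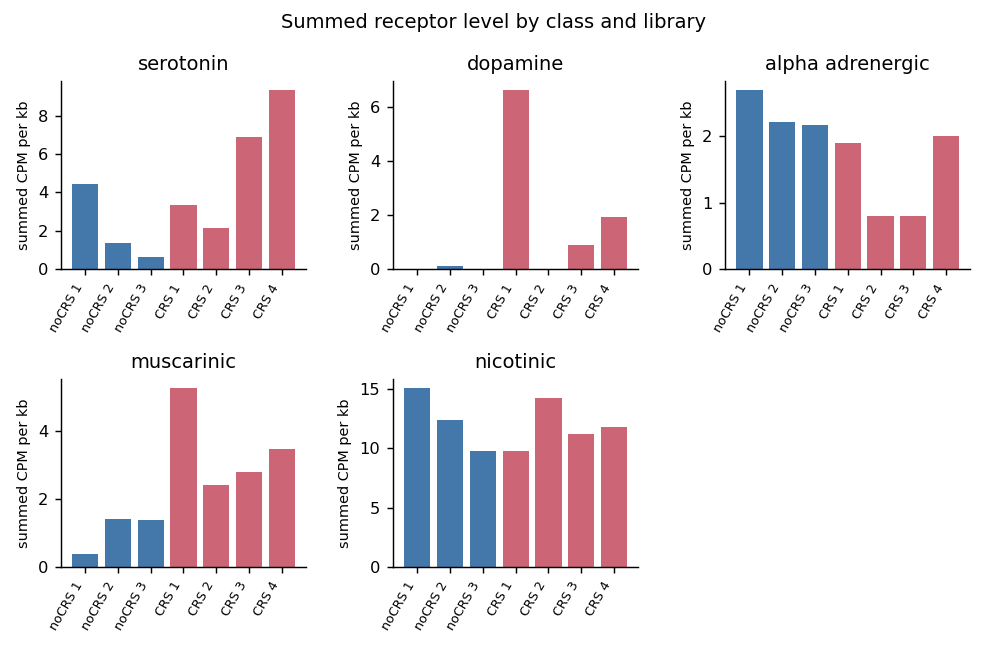
Summed CPM per kilobase of exon over the genes of 5 receptor classes, 1 bar per library (noCRS blue, CRS red), each axis starting at 0. The muscarinic bars are all higher in CRS (2.4 to 5.28) than in noCRS (0.389 to 1.42), the alpha adrenergic bars are all lower, and the other 3 classes overlap.

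The serotonin sums ran from 0.655 to 4.45 CPM per kilobase in noCRS and from 2.15 to 9.33 in CRS. The dopamine sums ran from 0 to 0.122 and from 0 to 6.64. Both classes overlapped between the groups. By coupling, the Gi receptors summed to 2.43, 2.51 and 0.519 in noCRS replicates 1, 2 and 3 and 7.33, 3.15, 6.78 and 6.76 in CRS replicates 1, 2, 3 and 4 CPM per kilobase, with no overlap. Without Chrm2 the Gi sums were 2.43, 2.51 and 0.504 in noCRS replicates 1, 2 and 3 and 3.65, 2.26, 4.84 and 5.41 in CRS replicates 1, 2, 3 and 4, and the groups overlapped. Gs sums (0.483 to 3.76 in noCRS and 0.312 to 8.05 in CRS) and Gq sums (2.29 to 3.33 and 1.96 to 6.74) overlapped as well. Over the 49 genes without Chrna4, the summed level was 54.4, 41.5 and 32.3 in noCRS replicates 1, 2 and 3 and 113, 60.3, 81.5 and 108 in CRS replicates 1, 2, 3 and 4 CPM, higher in each CRS library than in any noCRS library. With Chrna4 the sums overlapped (80.01 to 109 and 101 to 145 CPM). The sums over the 49 genes, with and without Chrna4, were not planned in advance. Chrna4 was lower in every CRS library, so leaving it out widens the difference between the groups. All these sums are descriptions and carry no test.

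Across the 20 tested receptor genes 14 fold changes were positive, with a median of 1.33 on the log2 scale, beside 49.2% above 0 and a median of -0.02 over all 17833 tested genes. Of the 20 genes, 7 (among them Chrm2, Chrna5, Chrna7, Drd1, Htr1f and Htr7) were detected in fewer than 2 noCRS libraries and in at least 3 CRS libraries, so they passed the filter through CRS and could hardly have had a negative value. Of the other 13, 7 were above 0 and 6 below. At an unadjusted p below 0.05 there were 5 of 20 (Chrm2, Drd1, Htr7 and Chrna4 among them), beside 13.6% of all tested genes. Chrm2, Drd1 and Htr7 are among the 7 that passed the filter through CRS, so these shares do not show an excess among receptor genes. The remaining detected members that were not tested had few counts: Htr2b, Htr1d, Adra1d and Adra2c held 12, 5, 11 and 14 counts in CRS and 0 in noCRS, Chrna1 held 13 and 14, and Chrne held 150 counts in noCRS replicate 1 alone. By limma-voom Chrm2 was the 1 receptor gene called, beside 3.58% of all tested genes.

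**Figure D4:**
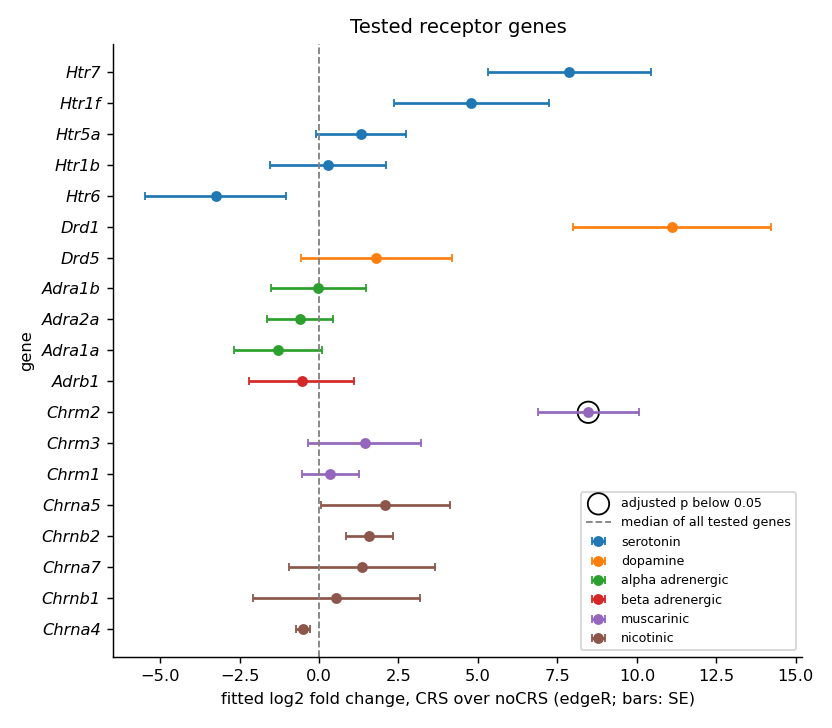
Fitted log2 fold change (CRS over noCRS) with its SE for 19 of the 20 tested receptor genes, coloured by class, with the median of all tested genes as a dashed line and a ring for an adjusted p below 0.05. Chrm2 alone carries the ring. Fits of Drd1 and Htr7, which had 0 counts in noCRS, depend on the prior count and are not bounds.

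The genes that make, clear and transduce these transmitters were examined beside the receptors, as a list of 59 genes, 49 of them tested. In this list 5 of 49 were higher in CRS by edgeR, beside 2.07% of all tested genes, and 0 lower (DESeq2 called 1 lower and limma-voom 0, and 3 were lower at an unadjusted p below 0.05; median log2 fold change 0.34), all of them G protein, protein kinase A or G protein regulator genes. Rgs4, which speeds the switching-off of Gi and Gq and is abundant in cortical neurons, measured 20.9, 32.2 and 49.3 CPM in noCRS replicates 1, 2 and 3 and 422, 368, 352 and 486 CPM in CRS replicates 1, 2, 3 and 4 (log2 fold change 3.58 ± 0.32 SE, edgeR adjusted p = 0.00226). Prkacb, a catalytic subunit of protein kinase A, measured 61.2, 57.2 and 46.1 CPM in noCRS replicates 1, 2 and 3 and 205, 159, 233 and 286 CPM in CRS replicates 1, 2, 3 and 4 (log2 fold change 2.01 ± 0.24 SE, edgeR adjusted p = 0.00626). Prkar1a, a regulatory subunit of that kinase, measured 687, 704 and 737 CPM in noCRS replicates 1, 2 and 3 and 1628, 1585, 1528 and 1319.5 CPM in CRS replicates 1, 2, 3 and 4 (log2 fold change 1.10 ± 0.14 SE, edgeR adjusted p = 0.00774). For these 3 the groups were far apart relative to the spread within each, and each call held under every alternative other than the replicate block, except that of Prkar1a without noCRS replicate 2 (adjusted p = 0.0501).

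The other 2 calls were on G protein alpha subunits. Gnai1, an inhibitory subunit, measured 227, 135 and 121 CPM in noCRS replicates 1, 2 and 3 and 359, 388, 327 and 365 CPM in CRS replicates 1, 2, 3 and 4 (log2 fold change 1.16 ± 0.23 SE, edgeR adjusted p = 0.0453). Gnas, the stimulatory subunit, measured 325, 275 and 302 CPM in noCRS replicates 1, 2 and 3 and 516, 537, 442 and 483 CPM in CRS replicates 1, 2, 3 and 4 (log2 fold change 0.72 ± 0.14 SE, edgeR adjusted p = 0.0416). For both, each CRS library was above each noCRS library, and both calls were weak: the Gnas call was lost without any single library (adjusted p up to 0.185) and the Gnai1 call without each library but noCRS replicate 1 (up to 0.182). Gnas shares 21.6% of its exon length with other genes of its locus. Gnai3, an abundant relative of Gnai1, measured 106, 129 and 83.4 CPM in noCRS replicates 1, 2 and 3 and 119.9, 119.8, 156 and 145 CPM in CRS replicates 1, 2, 3 and 4 (edgeR adjusted p = 0.564), and the groups overlapped.

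**Figure D5:**
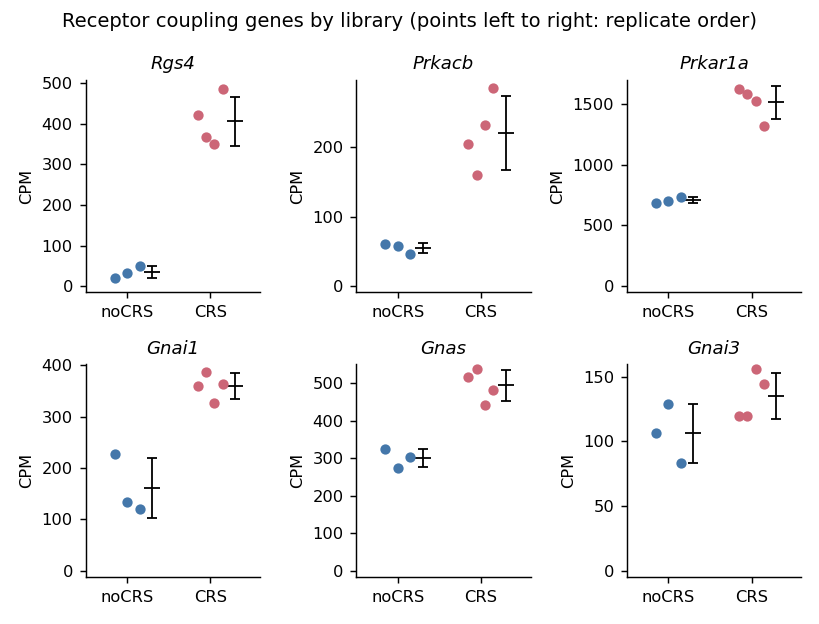
CPM of 6 receptor coupling genes in each library (points, noCRS blue, CRS red), with the group mean and SD. Rgs4 lies between 20.9 and 49.3 CPM in noCRS and between 352 and 486 CPM in CRS, while Gnai3 overlaps between the groups.

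By role, the calls were 4 higher and 0 lower of 24 tested among G proteins and effectors and 1 higher and 0 lower of 9 tested among kinases, arrestins and regulators of desensitisation, beside 2.07% higher and 0.23% lower of all tested genes. limma-voom made the same 4 and 1 calls, and DESeq2 called 6 higher and 1 lower in the first role and 2 higher in the second. At an unadjusted p below 0.05 there were 7 higher and 1 lower in the first and 2 higher and 2 lower in the second. The lower genes, named after their values were seen, were short of the edgeR threshold. Adcy5, an adenylyl cyclase and the 1 that DESeq2 called lower, measured 21 ± 1.46 CPM for noCRS (SD, n = 3) and 11.6 ± 1.68 CPM for CRS (SD, n = 4) (edgeR adjusted p = 0.375). Plcb3, a phospholipase C that Gq activates, measured 14.6 ± 4.05 CPM for noCRS (SD, n = 3) and 3.35 ± 2.57 CPM for CRS (SD, n = 4) (edgeR adjusted p = 0.289). Grk3, a receptor kinase, measured 47.6 ± 20.2 CPM for noCRS (SD, n = 3) and 18.5 ± 10.7 CPM for CRS (SD, n = 4) (edgeR adjusted p = 0.237). For these 3 of the 49 tested genes in the list every CRS library was below every noCRS library, beside 6.74% of all tested genes. For 12 of the 49 every CRS library was above every noCRS library, beside 10.1%. Arrb1, an arrestin, measured 23 ± 10.4 CPM for noCRS (SD, n = 3) and 9.37 ± 3.18 CPM for CRS (SD, n = 4) (edgeR adjusted p = 0.296), and its groups overlapped. Among the genes of synthesis, storage and uptake the edgeR calls were 0 higher and 0 lower of 5 tested. DESeq2 and limma-voom called 0, and 0 had an unadjusted p below 0.05. Among those of breakdown edgeR called 0 higher and 0 lower of 5 tested (likewise 0 by DESeq2, by limma-voom and at that p). Among those of nicotinic assembly and modulation edgeR called 0 higher and 0 lower of 6 tested. DESeq2 and limma-voom called 0 of these, and 2 were at that p, each of them higher in CRS. Several defining genes of serotonergic, noradrenergic and cholinergic neurons were at 0: Tph2, Dbh, Slc6a2, Slc6a4, Chat and Slc18a3 had 0 counts in all 7 libraries. Others of that list were counted. Slc5a7 had 1, 369 and 62 counts in noCRS replicates 1, 2 and 3 and 0, 0, 0 and 213 in CRS replicates 1, 2, 3 and 4. Slc18a2 had counts in all 7 libraries (0.0616 to 17.4 CPM), as did Ddc (41.6 to 124 CPM). Th had 186 counts in CRS replicate 2, 87 in CRS replicate 4 and 0 elsewhere. Slc6a3 had 268 counts in noCRS replicate 1, 121 in CRS replicate 1, 42 in CRS replicate 4 and 0 elsewhere. The pan-neuronal and excitatory marker sums given above moved in the same direction as the 5 calls, and their part in them was not tested.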

How the data were processed

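Per the submitters' processing notes the authors used FastQC, HISAT, HISAT2, featureCounts and DESeq2 on the build GRCm38, without versions. Column names end as STAR output does, so the aligner was not settled. The authors deposited unnormalised whole-number counts for each gene, with exon coordinates and length. All 50 members had the span given by GENCODE M21. Strand is not marked by the transposase kit named in the labels' protocols, and 9 members share exon bases with another gene, 6 of them over 10% of their exon length. How reads with several alignments were handled is not stated in those sources.

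The test was edgeR 4.0.16 under R 4.3.3 (TMM, default filter, quasi-likelihood, no covariate, threshold 0.05), adjusted over 17833 genes. SE is the absolute log2 fold change over the square root of F. Alternatives used DESeq2 1.42.0, limma 3.58.1 (voom with quality weights), other scalings and filters, the replicate block and each library left out. The sums by class without 1 library were added after seeing the data. Intervals and floors cover counting error only. Start windows are from RefSeq.

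Members and lists were chosen with earlier results of these data known. Named receptors are those past the threshold or at an unadjusted p below 0.05, the 2 highest per kilobase in each class, and 16 known from cortex; partners are those past the threshold and the 4 highest per kilobase; of each marker list the 2 most abundant are named. Others were named after their values were seen. For some genes no result is reported here, though counts and sums include them.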

Additional observations from a re-analysis of the deposited data

Results flagged for a closer look

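In the 4 CRS libraries, 5 of 34 values checked held a library far from the other 3 (a gap to the nearest value over Dixon's 95% critical share of the range). The usual rate of about 1 in 20 groups holds for normally spread values and not for counts with many at 0. A gene with counts in 1 CRS library alone is always marked, as Htr3a, Htr2c and Drd2 were. CRS replicate 4 was high in Htr1a (4.22 CPM), Htr3a (1.35 CPM) and Htr2c (0.573 CPM). CRS replicate 3 was low in Chrm1 (2.87 CPM), and CRS replicate 1 held the only Drd2 count (0.0302 CPM).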

How the results depend on the processing

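The 1 receptor gene called, Chrm2, was also the 1 called with 2 other scalings, 2 other filters and limma-voom. DESeq2 called 5 (Chrm2, Drd1 and Htr2a among the 4 higher, Chrna4 lower), and between 0 and 2 were called with 1 library left out. Of the partner genes, 5 in the fit above, 3 were called with library totals alone, with DESeq2 size factors and without a filter, 9 by DESeq2 and 2 to 4 with 1 library left out. Over all genes the count of 410 became 1626 by DESeq2, 639 by limma-voom and 142 to 352 with 1 library left out. Library totals alone gave 248 higher and 64 lower genes, beside 369 and 41, and moved the median log2 fold change by -0.16. With the replicate number as a block 0 receptor genes, 0 partner genes and 12 of all genes were called. Same-numbered libraries did not deviate together (correlations 0.02, -0.00319 and 0.02), and not every library correlated best with its own number. The block fits more terms to the same 7 libraries, which leaves less to estimate the spread. CRS replicate 4 has no noCRS library of its number. The loss of calls under the block therefore does not settle the comparison. With 1 library left out, log2 fold changes ran from -0.14 (without noCRS replicate 1) to 0.71 for Chrm1, from -1.03 to 0.34 (without noCRS replicate 2) for Adra2a and from -1.63 to 0.0519 (without noCRS replicate 1) for Adrb1. These 3 signs turned, none of the 3 genes was called, and the cause was not tested. Mean detected genes were 13.0 to 15.5 in noCRS and 18.7 to 23.7 in CRS with 1 library left out, and 12.7 and 17.75 at 10 counts. After thinning to the smallest total the means were 14 in noCRS and 21 in CRS. With 11 to 29 receptor genes detected per library, most single receptors could not be compared in these libraries.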
